A study of Saccharomyces cerevisiae with 4 samples.

Results

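Cohesin is the ring-shaped protein complex that holds sister chromatids together from their replication until anaphase. Its genes were read here in budding yeast, Saccharomyces cerevisiae, on 4 one-colour Affymetrix arrays. The 10 members are SMC1, SMC3, MCD1, IRR1, PDS5, SCC2, SCC4, ECO1, PDS1 and ESP1, and they were taken from the value table as the probe sets that the platform annotation assigns to 1 of these genes alone. Each gene had 1 such probe set, so the account covers 10 of the 5656 genes that have a probe set of their own, among 9335 probe sets in the table. A further probe set that lists SCC2 together with another gene was left out. Of the 4 arrays, 2 were hybridised with RNA from independent cultures of the hst3hst4 mutant (strain YCB600) and 2 with RNA from independent wild-type cultures (strain YCB617). Both strains are of the FY background and were grown in the rich medium YPD. The mutant is named for HST3 and HST4, which encode sirtuins that remove acetyl groups from lysine 56 of histone H3.

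As background, 2 long coiled-coil ATPases, Smc1 and Smc3, are closed into a ring by the kleisin Mcd1, and the ring is loaded on chromosomes by the Scc2-Scc4 complex. During S phase the acetyltransferase Eco1 acetylates Smc3, which locks rings around the sisters, and Pds5 and Irr1 regulate that state. At anaphase the securin Pds1 is degraded, which frees the protease separase, Esp1, to cut Mcd1. Several of these transcripts, MCD1 and PDS1 among them, are known to peak around the G1/S transition, so their level in a growing culture depends on the mix of cell cycle stages. In a bulk culture fewer cells at a stage and less RNA per cell cannot be told apart.

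The arrays had median signals of 37.5 to 41.2 and had been scaled to a common trimmed mean, so changes are relative to the average gene. The deleted genes were read to check the labels. The HST3 signal was 0.4 and 0.5 in the cultures labelled hst3hst4 against 13.7 and 25.3 in wild type. The HST4 signal opposed the labels, at 38 and 39.3 against 3.6 and 0.9 in wild type (log2 fold change 2.96, limma adjusted p = 0.0104). The sources used here do not place its probes relative to the deletion, so the HST4 check stays unresolved. The cause of its higher signal was not tested. The strains are therefore called by their labels, and each difference is hst3hst4 minus wild-type as labelled. The spiked hybridisation controls of bacteria and phage differed by -0.36 on average (log2, 9 probe sets). The 3' to 5' signal ratio of the TATA-binding protein gene was 3.70 to 3.82 on the hst3hst4 arrays and 4.64 to 5.20 on the wild-type arrays. That of SRB4 ran the other way, at 1.904 to 2.34 against 1.63 to 1.87, and that of ACT1 overlapped, at 1.73 to 1.78 against 1.702 to 1.884.

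No cohesin gene passed the comparison of the strains. The comparison was a limma fit on log2(signal + 3.3) over 7420 probe sets, with Benjamini-Hochberg adjustment and a threshold of 0.05. All 10 members lay above its filter on dim probe sets, and 0 of 10 passed, where 2.73% of the 5271 genes tested did. At an unadjusted p of 0.05, 2 members were higher and 0 lower in the mutant cultures, beside 10.2% of all genes tested that were higher and 8.97% that were lower. Those members were ECO1 and SCC4. At an adjusted p of 0.10 the count stayed at 0, beside 5.58% of all genes. The 95% confidence interval of the log2 fold change excluded a 2-fold change in either direction for 6 of the 10 members, SMC1, SMC3, IRR1, PDS5, SCC4 and ESP1. For MCD1, SCC2, ECO1 and PDS1 the interval reached it in 1 direction. These intervals hold for the settings of this fit only. With the arrays scaled on the hybridisation controls, SMC1 was at 0.529 (SE 0.295), IRR1 at 0.682 (SE 0.358) and SCC4 at 0.829 (SE 0.295). For these genes a 2-fold change was then not excluded. Among the 2100 genes tested in the same signal range, the smallest absolute log2 fold change that passed was 0.95.

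**Figure D1:**
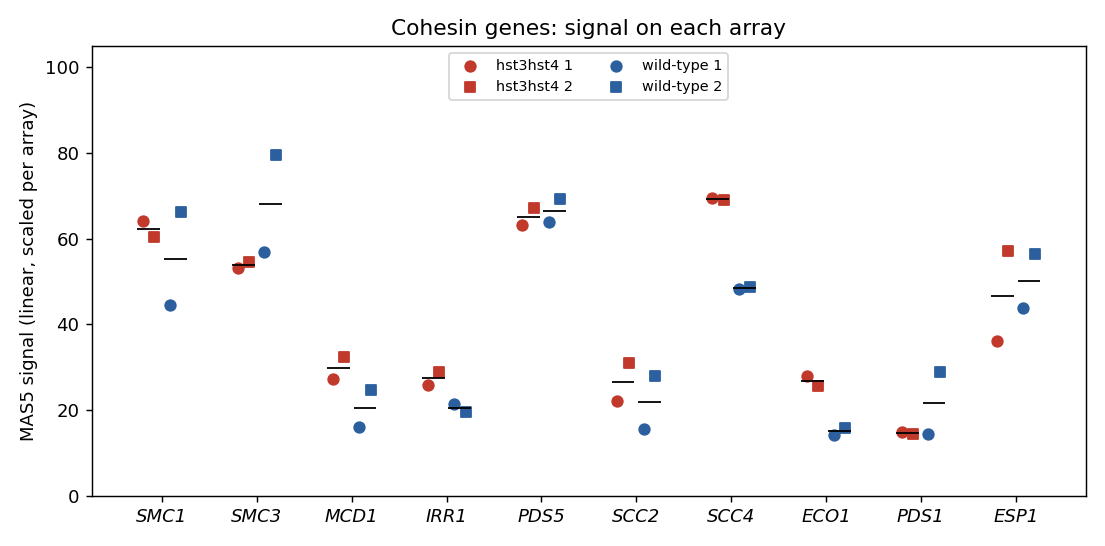
Signal of each cohesin gene on each of the 4 arrays (y axis, linear MAS5 signal; red, arrays labelled hst3hst4; blue, wild-type; circles, replicate 1; squares, replicate 2; short lines, group means). SCC4 and ECO1 show tight and separated groups, while SMC1, SCC2 and PDS1 are split by the 2 wild-type arrays; heights of different genes come from different probe sets and are not comparable.

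The core of the ring showed no common direction. SMC1 (YFL008W, chromosome VI, 119429 to 123106 in the R64 assembly) encodes one of the ATPase arms of the ring. Its signals were 64.2 and 60.5 in the mutant cultures and 44.5 and 66.2 in wild type. Both mutant values lay between the wild-type values, so the groups overlapped. The log2 fold change was 0.19 (SE 0.23, 95% interval -0.34 to 0.72, limma adjusted p = 0.692). It turned to -0.08 with wild-type replicate 1 left out and was 0.46 with wild-type replicate 2 left out.

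SMC3 (YJL074C, chromosome X, 299157 to 302849) encodes the other arm, the one that Eco1 acetylates. It gave 53.1 and 54.5 in the mutant against 56.9 and 79.5 in wild type. Both mutant values were below both wild-type values, narrowly so for wild-type 1. The log2 fold change was -0.31 (SE 0.22, interval -0.81 to 0.19, adjusted p = 0.469). Leaving out wild-type replicate 1 gave -0.54 and leaving out wild-type replicate 2 gave -0.08.

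MCD1 (YDL003W, chromosome IV, 444683 to 446383), the kleisin that separase cuts, gave 27.2 and 32.4 in the mutant cultures and 16.1 and 24.6 in wild type. The groups did not overlap, with wild-type 2 close below hst3hst4 1. Its log2 fold change of 0.50 (SE 0.28, interval -0.14 to 1.15, adjusted p = 0.354) became 0.24 without wild-type replicate 1, while leaving out wild-type replicate 2 gave 0.77. IRR1 (YIL026C, chromosome IX, 304477 to 307929), also called SCC3, encodes the subunit bound to the kleisin. It gave 25.9 and 28.9 against 21.5 and 19.6, higher on both mutant arrays, with a log2 fold change of 0.36 (SE 0.24, interval -0.20 to 0.93, adjusted p = 0.446).

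PDS5 (YMR076C, chromosome XIII, 416196 to 420029) encodes the factor that maintains cohesion after its establishment and also takes part in the release of rings. Its signals of 63.1 and 67.1 in the mutant and 63.9 and 69.2 in wild type were interleaved. The log2 fold change was -0.03 with the lowest SE of all members, 0.18, and its interval ran from -0.45 to 0.39 (adjusted p = 0.947).

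The loader pair differed in how evenly its values ran. SCC4 (YER147C, chromosome V, 462968 to 464842), which targets the loader to chromosomes, gave 69.4 and 69 in the mutant cultures and 48.2 and 48.7 in wild type. Both groups were nearly constant and did not overlap, at 69.2 ± 0.283 against 48.5 ± 0.354 (SD, n = 2). The log2 fold change was 0.49 (SE 0.18, interval 0.06 to 0.91), with an unadjusted limma p of 0.0296 and an adjusted p of 0.199. SCC2 (YDR180W, chromosome IV, 821295 to 825776), the larger loader subunit, which stimulates the ATPase of the ring, gave 22.2 and 31 against 15.6 and 28. Its groups overlapped, and the log2 fold change was 0.28 (SE 0.32, interval -0.46 to 1.03, adjusted p = 0.669). It turned to -0.08 with wild-type replicate 1 left out, and with wild-type replicate 2 left out it was 0.65.

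ECO1 (YFR027W, chromosome VI, 207452 to 208297), also called CTF7, encodes the acetyltransferase of Smc3 and had the highest log2 fold change of the members. Its signals were 27.9 and 25.7 in the mutant and 14.2 and 15.8 in wild type, or 26.8 ± 1.56 against 15 ± 1.13 (SD, n = 2). The groups did not overlap. The fold was 1.65 on the log2(signal + 3.3) scale, a log2 fold change of 0.72 (SE 0.26, interval 0.12 to 1.32), with an unadjusted p of 0.0249 and an adjusted p of 0.185.

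Neither ECO1 nor SCC4 passed when any array was left out. ECO1 kept a log2 fold change of 0.66 to 0.78 and SCC4 one of 0.48 to 0.49 (lowest adjusted p, 0.197 and 0.205). Both passed when the arrays were scaled on the 9 hybridisation controls, with log2 fold changes of 1.03 for ECO1 (adjusted p = 0.042) and 0.83 for SCC4 (adjusted p = 0.0368). That scaling moved the median of all genes tested from -0.01 to 0.33 and the number of probe sets that passed from 196 to 1164.

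The anaphase switch genes varied between cultures of the same strain. PDS1 (YDR113C, chromosome IV, 680496 to 681617), the securin, gave 14.8 and 14.4 in the mutant cultures and 14.5 and 28.8 in wild type. Only wild-type 2 stood apart, and the 3 other values were nearly equal. Its log2 fold change was -0.42 (SE 0.35, interval -1.23 to 0.39, adjusted p = 0.544), or -0.84 without wild-type replicate 1. Leaving out wild-type replicate 2 instead gave 0.01. ESP1 (YGR098C, chromosome VII, 682566 to 687458), the separase, gave 36 and 57.1 against 43.9 and 56.4. Here replicate 1 was the lower array in both strains, and the groups overlapped at a log2 fold change of -0.12 (SE 0.26, interval -0.73 to 0.48, adjusted p = 0.829). Its sign turned, to 0.19, with hst3hst4 replicate 1 left out and, to 0.05, with wild-type replicate 2 left out.

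**Figure D2:**
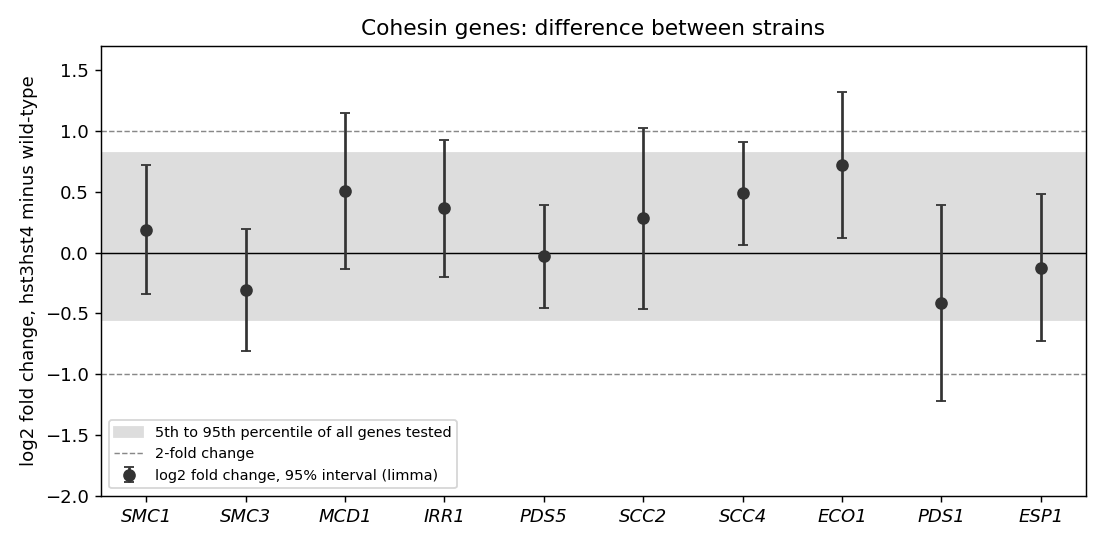
Log2 fold change of each cohesin gene, arrays labelled hst3hst4 minus wild-type (points), with 95% confidence intervals from limma (bars). The grey band spans the 5th to 95th percentile of all genes tested and dashed lines mark a 2-fold change. The intervals of ECO1 and SCC4 exclude 0 before adjustment, and 4 intervals reach a 2-fold change.

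As a group, 6 members had a log2 fold change above 0 and 4 below, and 48.3% of all genes tested were above 0. The members' median was 0.23, beside a median of -0.01 over all genes tested and 0.03 over those of the same signal range. The groups did not overlap for 5 of 10 members, and among all genes tested that share was 52.4%. Of the 5, MCD1, IRR1, SCC4 and ECO1 were higher on both mutant arrays and SMC3 was lower. The corresponding shares of all genes were 25.1% and 27.4%. The sign of the median rested on wild-type 1. With all members kept, the members' median was -0.08 without wild-type replicate 1. Leaving out wild-type replicate 2 gave 0.38, and leaving out a mutant array gave 0.15 to 0.31.

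By design each mutant culture is to be compared with both wild-type cultures. Against wild-type 1, 7 members were higher in hst3hst4 1 and 8 in hst3hst4 2, with medians of 0.33 and 0.40. Against wild-type 2, 4 members were higher in hst3hst4 1 and 6 in hst3hst4 2, with medians of -0.08 and 0.07.

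**Figure D3:**
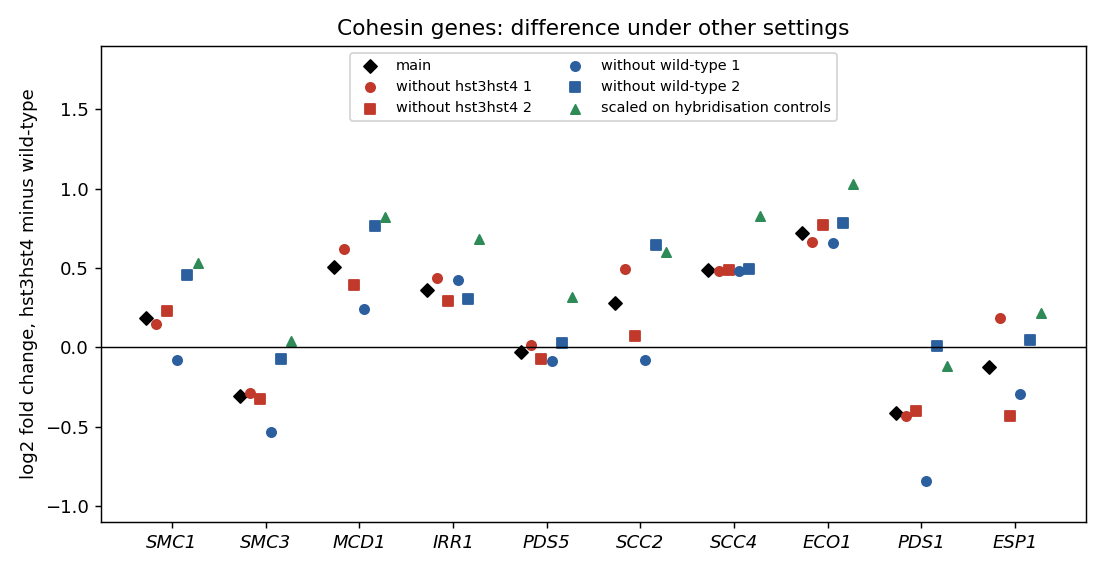
Log2 fold change of each cohesin gene (y axis) with all 4 arrays (black), with each array left out (red and blue) and after scaling on the hybridisation controls (green). SCC4, ECO1, PDS5 and IRR1 move little when an array is left out, whereas PDS1 runs from -0.84 to 0.01 and SCC2 from -0.08 to 0.65.

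Across these genes the wild-type cultures were unequal. For 9 of 10 members the signal was higher on wild-type 2 than on wild-type 1, with IRR1 the exception, and the median log2 difference was 0.40. Over all genes tested 54.7% were higher on wild-type 2, with a median of 0.04. Within the members' signal range the share was 52.2% and the median 0.03, and 15.8% of those genes exceeded the members' median. The largest differences among the members were 0.85 for PDS1, 0.73 for SCC2, 0.54 for SMC1 and 0.52 for MCD1. For 7 of 10 members this difference between cultures exceeded the log2 fold change between strains. IRR1, SCC4 and ECO1 were the other 3. The former compares 2 single arrays and the latter 2-array means, so the former tends to be larger without any change between strains. The share over all genes was not counted, so this count shows no trait of the cohesin genes.

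The mutant cultures lay closer together. The signal was higher in hst3hst4 2 for 6 of 10 members, where 64.5% of all genes tested were. The median absolute difference between them was 0.10 over the members, beside 0.19 over all genes tested, and that between the wild-type cultures was 0.40, beside 0.23. ESP1, at 0.62, and SCC2, at 0.43, differed most between the mutant cultures. These values are descriptions of 4 arrays, with 1 difference per strain, and carry no test.

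Genes expressed at the G1/S transition differed between the wild-type cultures in the same direction. Of 12 measured, such as RNR1, the large subunit of ribonucleotide reductase, 12 were higher on wild-type 2, with a median of 0.43. Other lists differed as well: 4 of 4 alpha-specific genes were higher on wild-type 2, with a median of 0.62, and 0 of 4 sporulation genes were, with a median of -0.69. RNR1 itself gave 306.1 and 582.4 on the wild-type arrays against 756 and 729.2 in the mutant. The summed signal of the 13 G1/S genes with a probe set was 2088 and 2816 on the wild-type arrays and 2341 and 2549 on the mutant arrays. The mutant sums lay between the wild-type sums, but bright genes weigh most in a sum. SVS1 ran against RNR1, with 479.8 and 599.7 in the mutant and 817.8 and 911.3 in wild type. Of the 12 tested, 5 were higher and 3 lower on both mutant arrays, beside 25.1% and 27.4% of all genes tested. For the 10 cohesin genes the sums were 339.3 and 436.8 on the wild-type arrays and 403.8 and 440.6 on the mutant arrays. The part of cell cycle stage or of the other lists in the cohesin values was not tested.

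**Figure D4:**
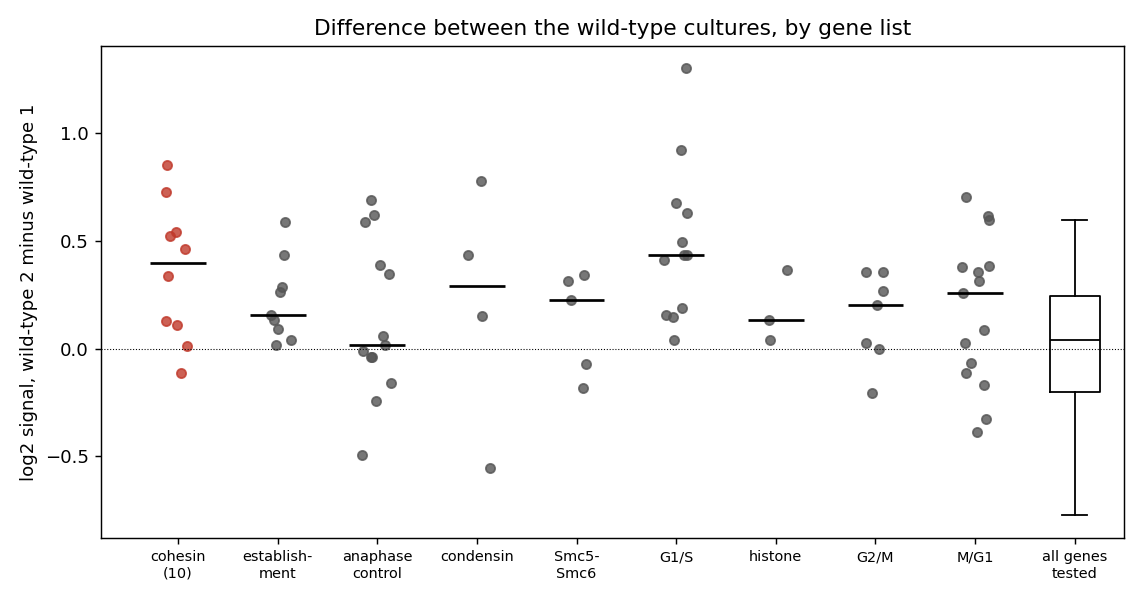
Log2 signal on wild-type 2 minus wild-type 1 (y axis) for each gene of the cohesin members (red) and of the other lists (grey), with list medians as lines. The box gives the quartiles and median of all genes tested and its whiskers the 5th and 95th percentiles. The cohesin and G1/S lists have medians of 0.40 and 0.43, beside 0.04 for all genes; the alpha-specific and sporulation lists are not drawn.

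Ratios of members within an array do not depend on how the array was scaled, apart from the added constant. The log2 difference of SMC3 to SMC1 was -0.26 and -0.14 in the mutant cultures and 0.33 and 0.25 in wild type. It was lower on both mutant arrays, by -0.49, against an SD within strains of 0.07. That of MCD1 to SMC1 was -1.15 and -0.84 against -1.30 and -1.32, higher by 0.32 (SD 0.15). Each of these 2 changes reached the smallest p that 2 against 2 arrays allow in a two-sided exact permutation test, 0.333, and over the 6 ratios compared the adjusted p was 0.8. The other ratios overlapped between strains, with changes of 0.18 for IRR1 to SMC1, -0.22 for PDS5 to SMC1, -0.20 for SCC2 to SCC4 and -0.29 for PDS1 to ESP1 (exact permutation p of 0.667 to 1, adjusted p of 0.8 to 1). With 1 array left out these ran from -0.15 to 0.50, from -0.43 to -0.002, from -0.56 to 0.15 and from -0.62 to 0.03, so that 3 of the 4 changed sign.

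Other genes of chromosome cohesion and structure gave no call either. Over 6 lists, 33 of 44 genes were tested and 0 passed in limma; at an unadjusted p of 0.05, 3 were higher and 0 lower. Over all genes tested 2.73% passed, and 10.2% were higher and 8.97% lower at that unadjusted p. Their median log2 fold change was -0.02.

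Factors that establish cohesion at the replication fork, 9 of 9 tested, had 7 log2 fold changes below 0 and a median of -0.25. The lowest was MRC1, a mediator of the replication checkpoint that travels with the fork, with signals of 12.8 and 8.3 against 14.4 and 20.6 (log2 fold change -0.59, adjusted p = 0.383). The highest was DCC1, a subunit of the alternative clamp loader with Ctf18, with 40.3 and 42.6 against 29.6 and 32.8 (0.38, adjusted p = 0.359). All 9 were higher on wild-type 2 than on wild-type 1.

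Regulators of anaphase and separase, 13 of 14 tested, had a median of 0.21, with 8 above 0 and 5 below. SPO12, of the pathway that releases the phosphatase Cdc14 early in anaphase, was the member nearest the threshold, with 118.8 and 123.7 against 71.3 and 69.4 (0.76, SE 0.17, adjusted p = 0.066). CDC5, the polo kinase that phosphorylates Mcd1 and promotes its cleavage, was the lowest, with 103.2 and 108.2 against 109.3 and 165.8 (-0.34, adjusted p = 0.436). SLK19, a kinetochore protein that separase also cuts, lay below the filter, with signals of 1.3 to 12.8.

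The related Smc complexes gave no call. In condensin, which compacts chromosomes, 4 of 5 genes were tested with a median of 0.14, from YCG1 at -0.02 (adjusted p = 0.982) to SMC2 at 0.27 (0.469). In the Smc5-Smc6 complex, which acts in DNA repair, 5 of 8 were tested with a median of -0.31. That median holds for the tested genes only. Below the filter, NSE4 was at 0.91, KRE29 at 0.63 and MMS21 at 0.13. Among the tested genes of the complex, NSE5 was the lowest at -0.41 (adjusted p = 0.261). NSE1 was the highest of them, with 57.5 and 64 against 35.3 and 41.8 (0.62, adjusted p = 0.157). Of 6 genes of meiotic cohesion, 2 were tested, CSM1 at 0.42 (adjusted p = 0.236) and LRS4 at -0.38 (0.462), both also active in mitotic cells. The meiotic kleisin REC8 lay below the filter, with signals of 2.2 to 6.4. So did RAD61, which opens the ring, at 3.8 and 6.0 against 8.3 and 9.4, and HOS1, which deacetylates Smc3, at 6.9 and 10.1 against 6.5 and 9.6.

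**Figure D5:**
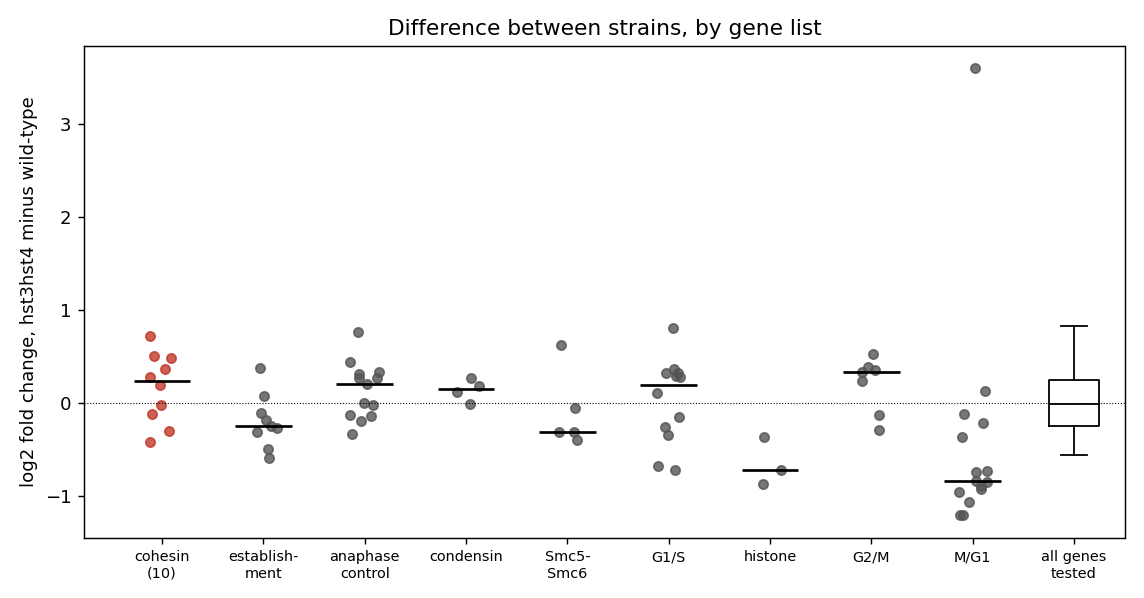
Log2 fold change, arrays labelled hst3hst4 minus wild-type (y axis), of each gene of the cohesin members (red) and of the other lists (grey), with list medians as lines. The box gives the quartiles and median of all genes tested and its whiskers the 5th and 95th percentiles. The cohesin genes spread around a median of 0.23, and the M/G1 genes lie lowest, at a median of -0.84, with PIR3 far above them.

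Lists of cell cycle stages stood beside these values as follows. Of all 5271 genes tested, 116 passed as higher and 28 as lower in the mutant cultures. The 12 G1/S genes had 0 calls and a median of 0.19, between POL2, the catalytic subunit of DNA polymerase epsilon, at -0.73 (adjusted p = 0.0895), and RNR1 at 0.81 (0.165). The 7 G2/M genes had 0 calls and a median of 0.33, between BUD4 at -0.30 (0.505) and YNL058C at 0.52 (0.152). For 3 histone genes the values ran from -0.87 for HHO1 (0.0957) to -0.36 for HTB1 (0.175), with 0 calls. Among 15 M/G1 genes, 5 fell (EGT2, CTS1, DSE2, DSE4 and PIR1), PIR3 rose and 9 did not pass. FAR1, an inhibitor of G1 cyclin kinase, was the lowest at -1.21 (adjusted p = 0.0848). Their summed signal was 4512 and 5185 in the mutant and 7097 and 7639 in wild type.

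Markers of yeast cell types were read on the same arrays. Of 7 genes specific to a cells, 7 had a log2 fold change below 0 (median -0.45), from STE6, the a-factor exporter, which fell by 1.05 (adjusted p = 0.0284), to MFA1 at -0.11 (0.755). The 4 genes specific to alpha cells ran from MF(ALPHA)2 at -0.13 (0.795) to SAG1 at 0.96 (0.177). The summed a-specific signal was 3686 and 3906 in the mutant and 4626 and 4434 in wild type, and the alpha-specific one was 156.7 and 178.4 against 85.8 and 134.3. Of 9 sporulation genes, 4 were tested with 0 calls, from IME2 at -0.02 (0.981) to DIT1 at 1.60 (0.103), and the sums were 96.1 and 106.9 against 82.4 and 49.2. No marker was at 0 on every array. That does not show that each was expressed, as the sporulation gene SPO11 read 0.4 to 0.6. The part of these markers in the cohesin values was not tested.

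The chromosomal neighbours of the members were read as a further comparison. No directly neighbouring protein-coding gene of the R64 table overlapped a member. Of the 20 protein-coding genes directly beside the members, 17 were tested and 0 passed in limma, beside 2.73% of all genes tested.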

How the data were processed

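RNA was extracted with hot acid phenol, amplified once from an oligo-dT primer and hybridised to 4 arrays, per the labels' protocols. Each deposited value is the linear intensity (signal) of a probe set, made with GCOS 1.4 and MAS5, per the submitters' processing notes; the scale target is not given in the sources used here. No detection calls were used. Arrays were grouped by their titles. Of 9335 probe sets, 60 controls were left out and 9275 kept. Names came from the platform annotation, updated by gene identifier to the RefSeq R64 table: 6504 probe sets had 1 gene, all matched, 328 had several and 2443 had none listed. The probe set with the highest mean represented a gene. Signals were transformed as log2(signal + 3.3), 3.3 being their 10th percentile, which understates changes of dim genes. The lowest 20% (1855 probe sets, below a signal of 8.97) were left out. Strains were compared with limma 3.58.1 (R 4.3.3, lmFit, eBayes with trend, 2 residual and 5.75 prior degrees of freedom), two-sided, with Benjamini-Hochberg adjustment. The fit was also run on simulated data with known changes and independent errors, which cannot check for shifts shared by many genes. The number of arrays limits the precision. Unless another tool is named, adjusted p-values are limma's. Figures were drawn with matplotlib 3.10.9.

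The members and the 13 other lists were chosen with earlier results of these data known. The genes named are HST3, HST4, all members, the highest and lowest of each list, and any called. SVS1 was named besides, as were SLK19, RAD61, HOS1, REC8, NSE4, KRE29, MMS21 and SPO11, which lay below the filter. Alternatives were quantile normalization, centring on the median, scaling on 9 hybridisation controls, pseudocounts of 1 and 12.9, no filter or 40%, no trend, 1 probe set per gene, a replicate block, a threshold of 0.10, and each array left out. The tested probe sets were those of the main filter unless the filter changed. The shared replicate numbers do not pair the cultures: the labels name nothing shared, and same-numbered deviations correlated at -0.041 across probe sets.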

Additional observations from a re-analysis of the deposited data

How the results depend on the processing

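With 2 arrays per strain, precision is limited by their number. No member passed under any setting except scaling on the hybridisation controls, where 2 did (SCC4 and ECO1). At an adjusted p of 0.10 in the main fit, 0 passed. On the control scaling MCD1 had a limma adjusted p of 0.0996. Of 135 values of single members under other settings, 123 kept their sign and call, 10 changed sign and 2 newly passed. The control scaling turned SMC3 to 0.037, PDS5 to 0.315 and ESP1 to 0.216, and moved the members' median to 0.56, which is 0.24 above the median of all genes, against 0.25 before. Leaving out the lowest 40% of probe sets kept 5 members and gave a median of -0.03, which is 0.001 above the median of all genes then tested. With each array left out in turn the median ran from -0.08 to 0.38, SMC1 from -0.083 to 0.457, PDS5 from -0.085 to 0.025, SCC2 from -0.082 to 0.646, ESP1 from -0.434 to 0.186, PDS1 from -0.843 to 0.008, and the ratio of MCD1 to SMC1 from 0.163 to 0.471. PDS5 was 0.012 and ESP1 0.186 without hst3hst4 replicate 1, and PDS5 0.025 and ESP1 0.046 without wild-type replicate 2.

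Over all genes tested 2.73% passed, and in the other lists 7 genes did. They were EGT2, CTS1, DSE2, DSE4, PIR1 and PIR3, among 15 tested of the M/G1 list, and STE6, among 7 of the a-specific list. The number was 15 on the control scaling, 2 with no filter, 1 without the trend, and 1 to 21 with an array left out (1 without either mutant array, 21 without wild-type replicate 1). With the replicate number as a block it was 14, and 343 probe sets passed in place of 196, while the members still had 0 calls. Over all probe sets, 36 passed with no filter and 38 with no trend. Leaving out hst3hst4 replicate 1 or 2 gave 9 or 4, and leaving out wild-type replicate 1 or 2 gave 865 or 337. An arm with a lone array was assumed to vary like the other. The cause of these differences was not tested.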

Other observations

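Among the direct neighbours of the members, the 2 with the highest log2 fold changes were ULI1, beside ECO1 at a distance of 1194 bp, at 1.21 (SE 0.30, limma adjusted p = 0.0875), and ATG45, beside IRR1 at 672 bp, at 0.94 (SE 0.27, adjusted p = 0.124). CDC14, the mitotic exit phosphatase gene, which lies 115 bp from ECO1 on its other side, was at -0.20 (SE 0.24, adjusted p = 0.69). Both genes beside SCC4 were lower on the arrays labelled hst3hst4, SPT15, the TATA-binding protein gene, at -0.38 (SE 0.17, adjusted p = 0.269) and LSM5 at -0.24 (SE 0.16, adjusted p = 0.447), while SCC4 itself was at 0.49. These genes were chosen after their values were seen.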
